A study of Mus musculus with 12 samples.

Results

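The genes described here encode the proteins of blood coagulation and fibrinolysis: tissue factor and the clotting proteases, their cofactors and carriers, fibrinogen and the enzyme that crosslinks fibrin, the inhibitors and the protein C system, and the plasminogen system. They were chosen by gene symbol as the deposited gene table gives it, and all 34 symbols of the set were found among its 16035 genes. All 34 were tested, among 14725 genes tested in all, though F13a1 had counts high enough only through the group in which it was highest, as described below. They were measured by sequencing of total RNA, depleted of ribosomal RNA, from livers of wild-type C57BL/6 mice, in a series that concerns experimental nonalcoholic steatohepatitis. Of the 4 groups, 1 ate normal chow for 1 month and 1 ate a diet called HFCF for 1 month, and the mice of both were 3 months old. The other groups ate chow or HFCF for 3 months and were 6 months old, so that feeding time and age moved together. The labels do not spell out HFCF, and they name no allele or treatment besides the diets. Each group held 3 biological replicates, which gave 12 libraries of 13733485 to 20277572 counts.

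Coagulation is a cascade in which each protease activates the next. Tissue factor, exposed on cells outside the vessel lumen, binds factor VII, the activity passes through factors IX and X to thrombin, and thrombin cuts fibrinogen to fibrin. Plasmin, made from plasminogen by the tissue-type and urokinase-type activators, then dissolves the clot. Hepatocytes make most of the circulating proteins of both systems, while endothelial cells, macrophages and mesenchymal cells supply factor VIII, tissue factor, thrombomodulin, the plasminogen activators and a few others. By that textbook division 24 of the members are made mainly by hepatocytes and 10 mainly by other cells, and both sets are followed below. The members and their lists were chosen with earlier results of these data known, so a split along this division is no independent support. In liver RNA of this kind, fewer cells of a type and less RNA per cell cannot be told apart.

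The levels of the members fell into the same division. On the deposited FPKM scale, which divides counts by gene length and library total, the 24 hepatocyte members held ranks 1 to 24 among the 34 in each of the 4 groups. In chow at 1 month the fibrinogen chains led, with Fgb at 3284 ± 628 FPKM, Fgg at 1820.4 ± 305 and Fga at 1765 ± 276 (mean ± SD, n = 3 for every mean below). Fgb ranked 20 among all 16035 genes. Antithrombin (Serpinc1, 906 ± 86.5 FPKM) and plasminogen (Plg, 681 ± 21.1) came next, and factor XI (F11, 28.2 ± 1.90) was the lowest of the hepatocyte members. Among the members of other cells, factor VIII (F8) stood at 7.07 ± 1.09 FPKM and the other 9 ran from 2.85 for Thbd down to 0.168 for F13a1. Not all neighbours in this order were distinct: in 17 of the 33 neighbouring pairs the 3 libraries of one member overlapped those of the next, and in the other groups this was so in 20 to 21 pairs.

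**Figure D1:**
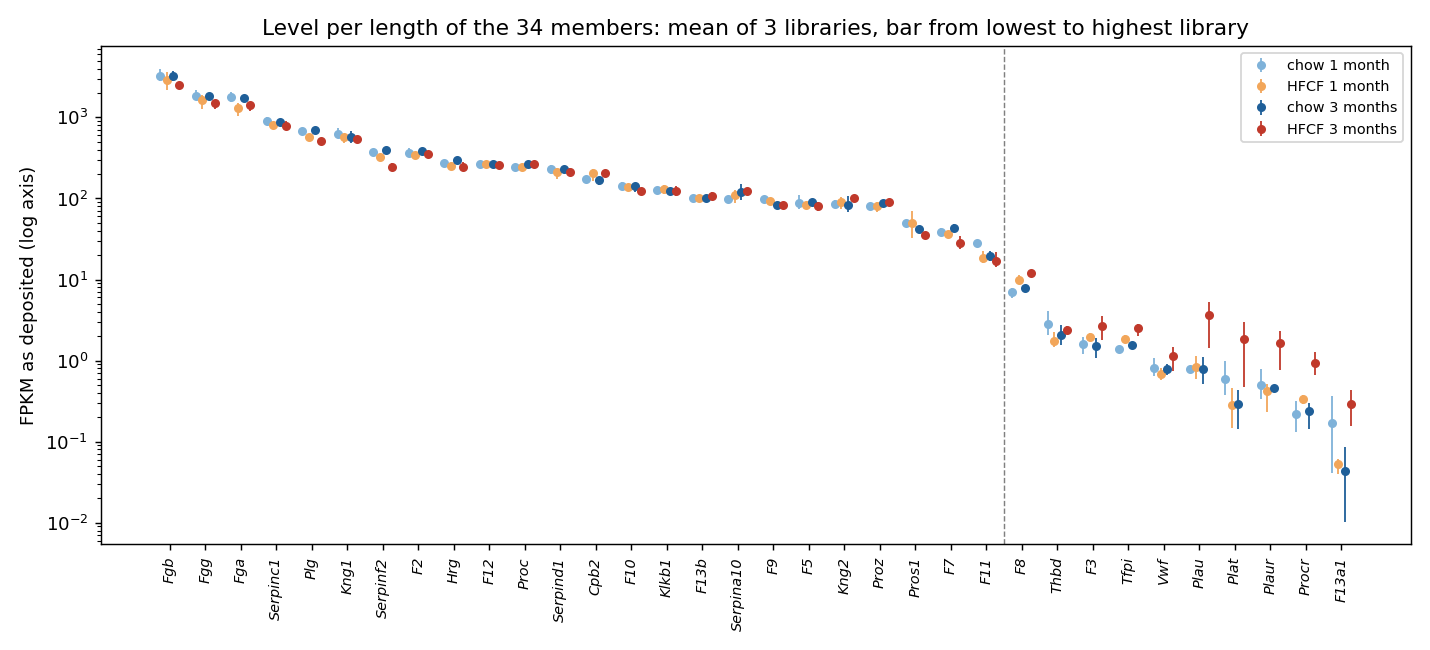
Deposited FPKM of the 34 members on a log axis, ordered by their mean in chow at 1 month. Points are means of 3 libraries in each of the 4 groups and bars run from the lowest to the highest library. The dashed line separates the 24 members made mainly by hepatocytes, on the left, from the 10 made mainly by other cells, and HFCF at 3 months departs most visibly from the other groups among the members on the right.

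Between groups the members were compared on read counts scaled to library size with TMM, given as CPM. A change is a log2 fold change ± SE from edgeR's quasi-likelihood test, HFCF over chow unless stated, and a member is said to have risen or fallen where the adjusted p, corrected over all 14725 genes by Benjamini-Hochberg, was under 0.05. In all, 2 libraries stood apart from their groups in a principal component analysis of all genes: HFCF at 3 months replicate 3 lay at 29.3 on the first component, which held 42.7% of the variance, against 60.7 and 63.8 for its group, and chow at 1 month replicate 1 lay at 36.8 on the second, against 0.01 and 6.43. The series' tissue label fitted its markers, with summed levels of 7 hepatocyte markers from 58891 to 117788 CPM over the 12 libraries and none of the 7 at 0 in any.

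At 3 months plasminogen, its main plasmin inhibitor and factor VII were lower on HFCF, and both plasminogen activators, the urokinase receptor and 4 other members made outside hepatocytes were higher. Of the 34 members 11 passed the threshold (32.4%), where 19.0% of all genes tested did. The 7 that rose were F8, F13a1, Procr, Tfpi, Plat, Plau and Plaur, all from the 10 members of other cells, and 11.5% of all genes rose. F13a1 had counts high enough to be tested only through these HFCF libraries, so its rise is no independent support. The 4 that fell were F7, Plg, Serpinf2 and Hrg, all from the 24 hepatocyte members, and 7.50% of all genes fell. The median change was 1.18 over the 10 members of other cells, with 10 of 10 above 0, and -0.24 over the 24 hepatocyte members, with 2 above 0, beside a median of -0.004 over all genes. By role, 6 of 7 fibrinolysis genes passed, 3 higher and 3 lower, against 1 of 8 proteases, 1 of 5 cofactors and carriers, 1 of 5 fibrin genes and 2 of 9 inhibitors. In 17 of the 34 members (50%) the 3 HFCF libraries did not overlap the 3 chow libraries, 7 higher and 10 lower, as in 36.8% of all genes.

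**Figure D2:**
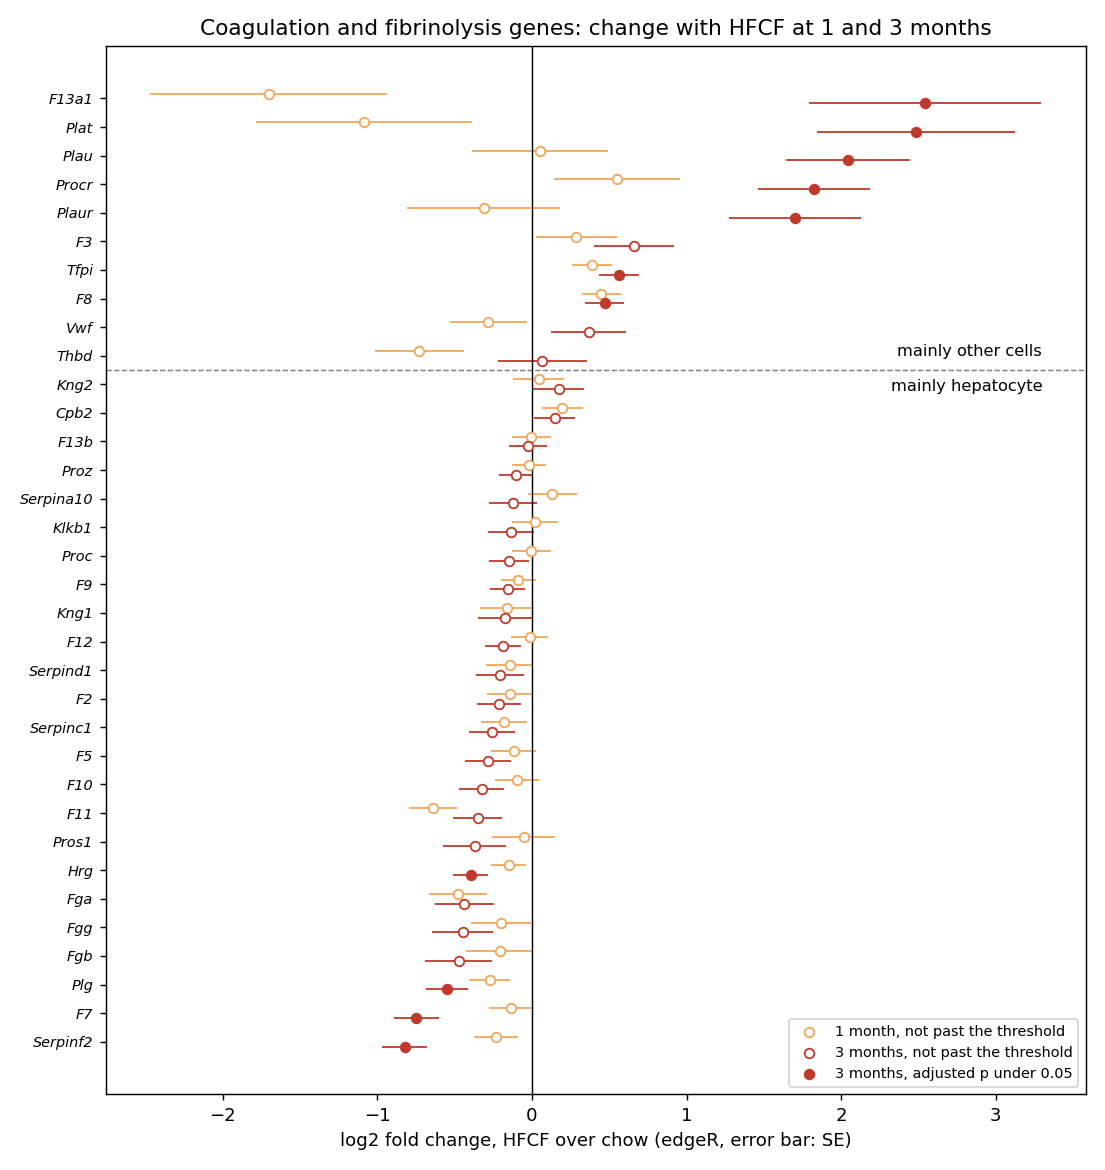
Log2 fold change of HFCF over chow for each of the 34 members at 1 month (orange) and at 3 months (red), with the SE as error bar, and filled points for an adjusted p under 0.05. Members above the dashed line are made mainly by other cells and those below it mainly by hepatocytes. Every filled point is at 3 months: 7 lie above the line and to the right of 0, and 4 lie below the line and to the left of 0.

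The set of RefSeq promoters used held 8 of these 11 members, and 5 are shown so that members that fell can be read beside members that rose. Of these 8, they are the 3 that fell (F7, Serpinf2 and Hrg) and a pair of the 5 that rose (Plaur and Procr). This pair had a match to the first 2 motifs named below. Each window runs from 250 bases before to 50 bases after the RefSeq start on GRCm38.p6, the NCBI name of mm10, and is written 5′ to 3′ on the gene's strand. Capitals mark matches on either strand to the core motif of C/EBP factors (TTGCNNAA), AP-1 (TGANTCA) or the GC box (GGGCGG). Cores of HNF1 (GTTAAT), HNF4 (CAAAGTC) and STAT (TTCNNNGAA) were searched as well.
F7, chr8:13025784-13026083, plus strand: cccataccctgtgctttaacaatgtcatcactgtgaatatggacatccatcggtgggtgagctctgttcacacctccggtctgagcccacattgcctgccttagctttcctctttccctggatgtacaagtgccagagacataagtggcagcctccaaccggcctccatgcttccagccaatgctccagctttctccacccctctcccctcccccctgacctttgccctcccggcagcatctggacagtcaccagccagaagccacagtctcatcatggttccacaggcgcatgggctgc
Serpinf2, chr11:75439452-75439751, minus strand: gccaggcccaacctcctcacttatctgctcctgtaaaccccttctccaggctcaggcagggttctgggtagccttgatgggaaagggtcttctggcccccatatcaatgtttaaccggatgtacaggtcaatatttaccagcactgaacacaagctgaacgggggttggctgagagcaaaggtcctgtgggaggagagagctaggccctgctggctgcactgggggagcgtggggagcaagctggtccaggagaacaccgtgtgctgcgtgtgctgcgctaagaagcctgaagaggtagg
Hrg, chr16:22950822-22951121, plus strand: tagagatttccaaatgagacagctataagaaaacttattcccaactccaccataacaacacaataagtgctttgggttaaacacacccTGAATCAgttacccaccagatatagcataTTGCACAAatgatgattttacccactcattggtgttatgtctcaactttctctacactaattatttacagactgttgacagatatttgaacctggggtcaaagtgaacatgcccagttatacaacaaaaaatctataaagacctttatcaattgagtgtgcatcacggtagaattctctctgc
Plaur, chr7:24462233-24462532, plus strand: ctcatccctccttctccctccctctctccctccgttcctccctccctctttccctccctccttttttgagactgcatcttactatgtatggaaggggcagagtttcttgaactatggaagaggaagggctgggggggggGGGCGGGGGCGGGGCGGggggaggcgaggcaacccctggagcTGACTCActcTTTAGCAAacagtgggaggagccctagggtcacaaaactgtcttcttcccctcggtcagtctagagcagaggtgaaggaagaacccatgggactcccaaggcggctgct
Procr, chr2:155750967-155751266, plus strand: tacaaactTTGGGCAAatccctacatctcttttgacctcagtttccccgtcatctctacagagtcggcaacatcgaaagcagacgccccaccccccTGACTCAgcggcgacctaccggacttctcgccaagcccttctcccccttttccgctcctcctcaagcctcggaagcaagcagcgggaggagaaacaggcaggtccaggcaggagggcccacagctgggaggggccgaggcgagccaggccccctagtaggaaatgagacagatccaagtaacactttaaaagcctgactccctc
The windows of F7 and Serpinf2, which fell, hold none of the 6 motifs. Hrg, which fell, and Plaur and Procr, which rose, each hold 1 C/EBP and 1 AP-1 match, and Plaur also holds 3 GC boxes that adjoin or overlap. Of the 3 not shown, Tfpi holds 1 GC box and F8 and F13a1 hold none of the motifs. The RefSeq start of F8, however, lies 2574 bases from the deposited start of the gene, so its window does not cover the latter. A match is a string of letters and not a binding site shown by these data.

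These motifs are common among promoters of the same length. Of 32851 mouse promoters, 10.8% hold the C/EBP core, 7.81% the AP-1 core, 35.7% the GC box, 8.30% the STAT core, 7.10% the HNF1 core and 4.44% the HNF4 core. Of the 34 members 26 had a promoter in the table, 20 of them hepatocyte members. The C/EBP core was found in 9 of those 20 (Cpb2, F11, F9, Fga, Fgb, Hrg, Klkb1, Kng2 and Serpinc1) and the HNF1 core in 5 (F13b, F2, Fga, Fgb and Proz), the STAT core in 4 (F9, Fga, Fgb and Pros1), the AP-1 core in 3 (F2, Fgb and Hrg) and the GC box in 3 (F5, Klkb1 and Pros1), while 0 of 20 held the HNF4 core. Among the 6 members of other cells, 3 held the AP-1 core (F3, Plaur and Procr), 3 the GC box (F3, Plaur and Tfpi) and 2 the C/EBP core (Plaur and Procr).

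Of the proteases, factor VII (F7), the partner of tissue factor, fell at 3 months. It stood at 86.3, 76.6 and 78.6 CPM in chow replicates 1, 2 and 3 and at 41.8, 39.7 and 62.6 CPM in HFCF. All 3 HFCF libraries were below the other 9 libraries of the series, and replicate 3, which stood apart, was the one nearest to chow. The change was -0.75 ± 0.15 (edgeR adjusted p = 0.00417) and the call held without each of the 6 libraries in turn, with an adjusted p of at most 0.0234. F7 (ENSMUSG00000031443) lies on chromosome 8 from 13026034 to 13035809 in mm10, 1498 bases before F10, which encodes the protease that factor VII activates, and 4231 bases separate F10 from Proz.

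The other 7 genes of this role did not pass at 3 months. Tissue factor (F3), which starts the cascade, had 3.45, 1.96 and 3.15 CPM in chow and 4.35, 5.85 and 3.24 CPM in HFCF (0.66 ± 0.26, edgeR adjusted p = 0.0898). The adjusted p of F3 was 0.0289 without HFCF replicate 3. Factor X (F10) had a log2 difference of -0.33 ± 0.14 (edgeR adjusted p = 0.131, or 0.0297 without that replicate). Prothrombin (F2), the precursor of thrombin, had 1735 ± 140.3 CPM in chow and 1497 ± 178 CPM in HFCF (-0.21 ± 0.14, edgeR adjusted p = 0.323), and factor IX (F9) had a log2 difference of -0.16 ± 0.11 (edgeR adjusted p = 0.345). F11, F12 and prekallikrein (Klkb1), of the contact path, were between -0.35 and -0.13, with edgeR adjusted p of 0.138 or more, and F11 had 0.0370 without HFCF replicate 1.

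Among cofactors and carriers, F8 rose at 3 months. Factor VIII is made by liver sinusoidal endothelium and speeds the activation of factor X by factor IX. F8 stood at 75.4, 75.2 and 84.9 CPM in chow and 103, 99.2 and 124 CPM in HFCF (0.47 ± 0.13, edgeR adjusted p = 0.0209). The 2 groups did not overlap, and here the lowest HFCF library was replicate 2 and the highest was replicate 3. The adjusted p was 0.0622 without chow replicate 1, 0.0945 without chow replicate 2 and 0.0554 without HFCF replicate 3. F8 (ENSMUSG00000031196) lies on chromosome X from 75172715 to 75382615.

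Von Willebrand factor (Vwf), which carries factor VIII in plasma and is stored in vascular endothelium and platelets, did not pass, with 14.0, 10.5 and 13.6 CPM in chow and 16.1, 21.1 and 11.6 CPM in HFCF (0.37 ± 0.24, edgeR adjusted p = 0.317). Factor V (F5), the cofactor of factor X, had a log2 difference of -0.28 ± 0.15 (edgeR adjusted p = 0.194). The kininogens Kng1 and Kng2, from which kallikrein releases bradykinin, were at -0.18 and 0.17 (edgeR adjusted p = 0.512 and 0.494). They are close copies of each other on chromosome 16, so reads could have been split between them and their separate values are less certain.

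The 3 fibrinogen chains were lower in each HFCF library at 3 months than in each chow library, and none passed over all genes. Fga had 5196, 4677 and 5364 CPM in chow and 3769, 3096 and 4395 CPM in HFCF. Fgb had 5920.3, 4523 and 5267 CPM in chow and 3768, 3233 and 4308 CPM in HFCF. Fgg had 3789.6, 3283 and 3836 CPM in chow and 2669, 2179.6 and 3149.8 CPM in HFCF. In all 3 genes HFCF replicate 2 was the lowest library and HFCF replicate 3 the nearest to chow. The changes were -0.44 ± 0.19, -0.47 ± 0.22 and -0.45 ± 0.20 for Fga, Fgb and Fgg (edgeR adjusted p = 0.121, 0.140 and 0.127), and Fga alone was called by the DESeq2 Wald test (adjusted p = 0.0475) and without HFCF replicate 3 (0.0497 by edgeR). The chains lie together on chromosome 3, with 11099 bases between Fgg and Fga and 8132 between Fga and Fgb.

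Factor XIII is the transglutaminase that crosslinks fibrin. F13a1, its catalytic subunit, found in macrophages and platelets, rose at 3 months from 0.539, 0.0654 and 0.225 CPM in chow to 1.68, 2.44 and 0.966 CPM in HFCF (2.54 ± 0.75, edgeR adjusted p = 0.0342). These levels rest on 10, 1 and 3 counts in chow and 36, 56 and 14 in HFCF. Without these HFCF libraries F13a1 would not have had counts high enough to be tested. It was left out when only the groups at 1 month, or only the chow groups, were fitted. The groups did not overlap, but chow at 1 month replicate 1, which stood apart, had 2.57 CPM, more than any HFCF library at 3 months. The call was lost without chow replicate 2 or 3 or HFCF replicate 1 or 2, with an adjusted p of up to 0.128. F13b, the carrier subunit made by hepatocytes, had 254 ± 21.3 CPM in chow and 249.6 ± 41.2 in HFCF (-0.02 ± 0.12, edgeR adjusted p = 0.917). F13a1 (ENSMUSG00000039109) lies on chromosome 13 from 36867178 to 37050244, and an exon of Gm30489 overlaps it on the opposite strand. Exons of F5 (Gm16548), Fgg (Gm30097), Serpinc1 (Zbtb37) and Plg (Slc22a3) are overlapped on the opposite strand too, and those of Klkb1 by Cyp4v3 on the same strand, so that reads of these genes could have been shared, the strand setting of the counting being unknown.

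Among inhibitors and the protein C system, Procr and Tfpi rose at 3 months. Procr encodes the endothelial receptor that presents protein C to its activator. It had 0.593, 0.523 and 0.300 CPM in chow and 1.54, 2.27 and 1.31 CPM in HFCF, from 11, 8 and 4 and 33, 52 and 19 counts (1.83 ± 0.36, edgeR adjusted p = 0.00432). All 3 HFCF libraries lay above the other 9 of the series. Tfpi, tissue factor pathway inhibitor, which blocks factor VII bound to tissue factor, had 7.65, 8.76 and 8.70 CPM in chow and 13.4, 12.8 and 10.7 CPM in HFCF (0.56 ± 0.13, edgeR adjusted p = 0.00853). The HFCF libraries lay above all 6 chow libraries of both months and overlapped HFCF at 1 month. Both calls held without each of the 6 libraries, with adjusted p of at most 0.0294 and 0.0441. Procr (ENSMUSG00000027611) lies on chromosome 2 from 155751117 to 155755471 and Tfpi (ENSMUSG00000027082) on chromosome 2 from 84432855 to 84476775.

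The other 7 inhibitor and protein C genes did not pass. Antithrombin (Serpinc1), the main inhibitor of thrombin and factor X, had 1952, 1717 and 1919 CPM in chow and 1386, 1398 and 1888 CPM in HFCF (-0.26 ± 0.15, edgeR adjusted p = 0.250, or 0.0427 without HFCF replicate 3). In that gene HFCF replicate 3 lay within the chow range and replicates 1 and 2 lay below it. Protein C (Proc), which when active cuts factors V and VIII, had a log2 difference of -0.15 ± 0.13 (edgeR adjusted p = 0.446), and its cofactor protein S (Pros1) of -0.37 ± 0.20 (edgeR adjusted p = 0.228). Pros1 passed when only the 2 groups compared were fitted. Heparin cofactor II (Serpind1), the protein Z-dependent inhibitor (Serpina10) and protein Z (Proz) lay between -0.21 and -0.10. Thrombomodulin (Thbd), the thrombin receptor on endothelium, was at 0.07 ± 0.29 (edgeR adjusted p = 0.899).

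In fibrinolysis the activators rose and plasminogen fell at 3 months. Plau, urokinase-type plasminogen activator, had 2.48, 1.18 and 1.87 CPM in chow and 8.65, 10.9 and 3.24 CPM in HFCF (2.04 ± 0.40, 4.13-fold, edgeR adjusted p = 0.00497). Plaur, the cell surface receptor of urokinase, had 0.647, 0.654 and 0.600 CPM in chow and 2.25, 2.84 and 1.03 CPM in HFCF (1.70 ± 0.43, edgeR adjusted p = 0.0146). Plat, tissue-type plasminogen activator, had 1.08, 0.719 and 0.375 CPM in chow and 4.54, 6.68 and 1.17 CPM in HFCF (2.48 ± 0.64, edgeR adjusted p = 0.0214). In all 3 genes the HFCF libraries lay above the chow libraries of the same month, replicate 2 was the highest and replicate 3 came within reach of chow, with 47, 15 and 17 counts in Plau, Plaur and Plat. Plau in HFCF at 3 months was above the other 9 libraries of the series, whereas Plaur and Plat in replicate 3 were below chow at 1 month replicate 1. Plau kept its call without each library (adjusted p of at most 0.0289). Plaur and Plat lost it without chow replicate 2 or 3 or HFCF replicate 1 or 2, with adjusted p of up to 0.0819 and 0.0841. In mm10 Plau (ENSMUSG00000021822) lies on chromosome 14 from 20836662 to 20843388, Plaur (ENSMUSG00000046223) on chromosome 7 from 24462500 to 24475873 and Plat (ENSMUSG00000031538) on chromosome 8 from 22757744 to 22782847.

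Of the 4 hepatocyte members of fibrinolysis, 3 fell at 3 months. Serpinf2 encodes alpha-2-antiplasmin, the main inhibitor of plasmin, and had 941, 971 and 855 CPM in chow and 492, 453 and 619 CPM in HFCF (-0.82 ± 0.14, edgeR adjusted p = 0.00228). Plg, the precursor of plasmin, had 1976, 1857 and 1859.6 CPM in chow and 1309, 1117 and 1464 CPM in HFCF (-0.55 ± 0.13, edgeR adjusted p = 0.0124). In both genes the 3 HFCF libraries at 3 months lay below the other 9 of the series, and HFCF replicate 2 was the lowest. Serpinf2 kept its call without each library (adjusted p of at most 0.0154), and Plg lost it without HFCF replicate 2 (0.0746). Hrg, histidine-rich glycoprotein, a plasma protein that binds plasminogen and heparin, had 545, 482 and 495 CPM in chow and 432, 356 and 367 CPM in HFCF (-0.40 ± 0.11, edgeR adjusted p = 0.0253). It overlapped HFCF at 1 month, and the call was lost without any 1 of the 3 chow libraries (adjusted p = 0.0502 to 0.0802), without HFCF replicate 2 (0.123), with only the 2 groups compared in the fit (0.0549) and with scaling by total counts (0.129). Cpb2, a carboxypeptidase that slows fibrinolysis, had 249 ± 31.6 CPM in chow and 276 ± 6.98 CPM in HFCF (0.15 ± 0.13, edgeR adjusted p = 0.461). Serpinf2 (ENSMUSG00000038224) lies on chromosome 11 from 75431732 to 75439591, Plg (ENSMUSG00000059481) on chromosome 17 from 12378609 to 12419384 and Hrg (ENSMUSG00000022877) on chromosome 16 from 22951072 to 22961656.

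**Figure D3:**
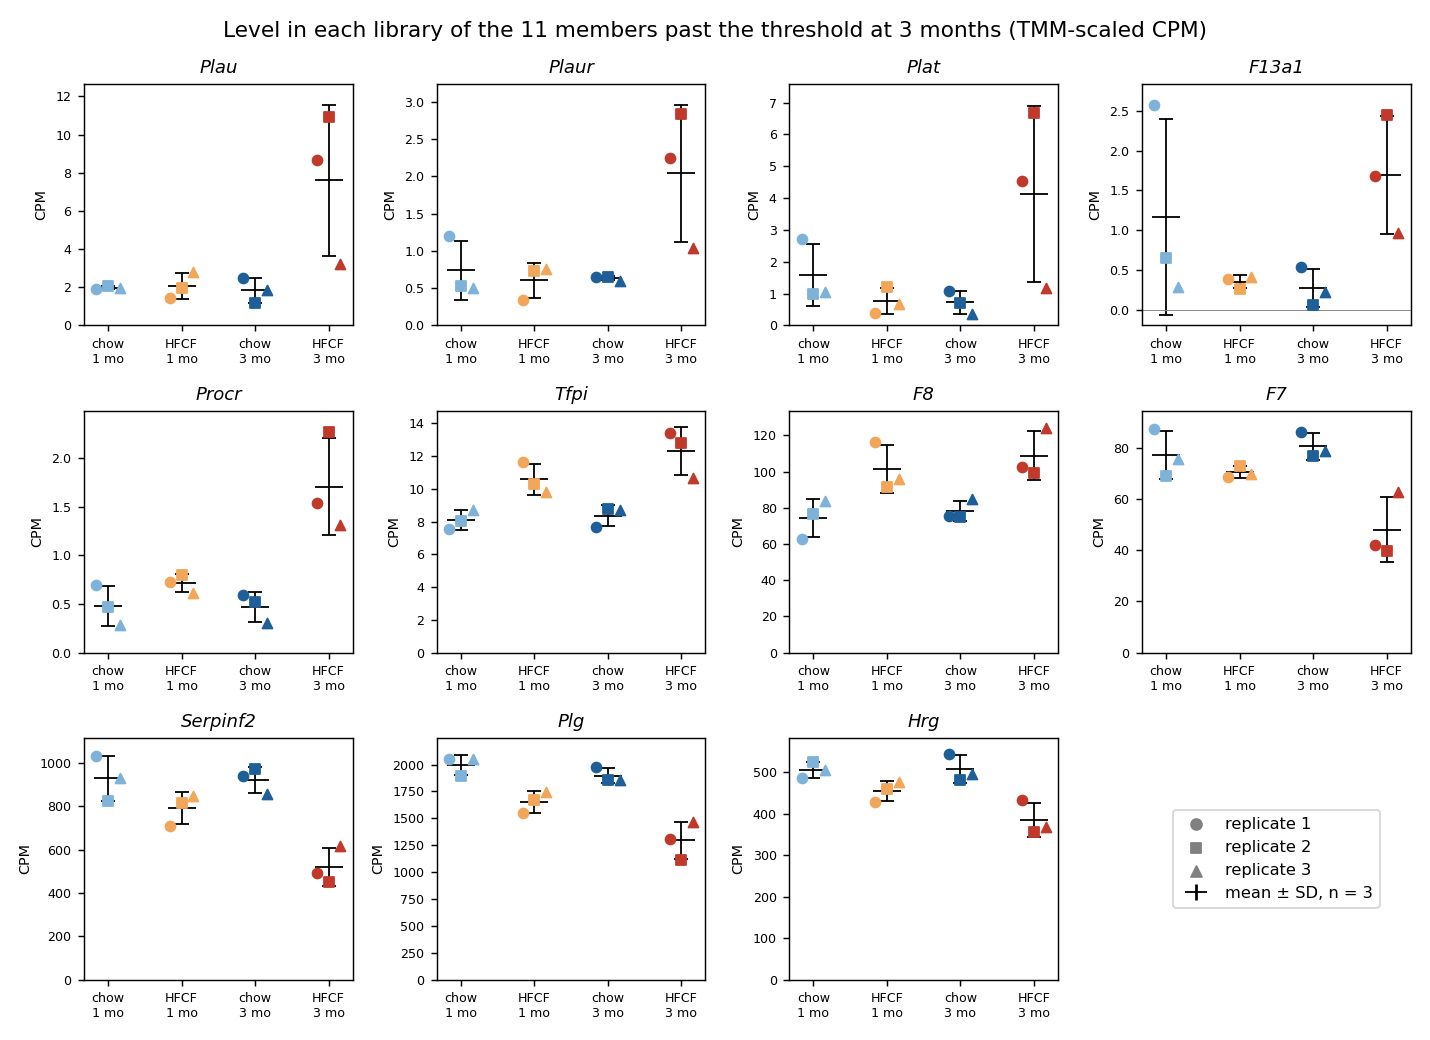
TMM-scaled CPM of the 11 members past the threshold at 3 months in each of the 12 libraries, with the mean and SD of each group of 3 in black and each replicate number as its own marker shape. In HFCF at 3 months the triangle, replicate 3, is the library nearest to chow in 9 of the 11 panels, all but F8 and Hrg.

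HFCF at 3 months replicate 3 was the library of its group nearest to the chow mean in 9 of these 11 members, all but F8, where it was replicate 2, and Hrg, where it was replicate 1. Without replicate 3 the count of members past the threshold was 14, with F3, F10, Fga and Serpinc1 gained and F8 lost. Without both libraries that stood apart it was 17, with Vwf and Fgg gained besides F3, F10, Fga and Serpinc1, and F8 kept. The count was 6 without HFCF replicate 2, 6 without chow replicate 2 and 7 without chow replicate 3, which are the only single libraries that moved it by over 1.5 times. Of the 11 members 5 had a change of at least 2-fold: Plau, Plaur, Plat, F13a1 and Procr.

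Markers of other cell types moved in the same libraries. All 8 monocyte and recruited macrophage markers rose at 3 months (median change 3.34, 5 of 8 without chow replicate 2), and their summed level was 315, 306 and 137 CPM in HFCF replicates 1, 2 and 3 against 52.8 to 76.4 CPM in chow. The 7 stellate cell and myofibroblast markers had 2 higher, Col3a1 and Pdgfrb (median 1.08, and 0 higher without chow replicate 2 or 3 or HFCF replicate 2), with summed levels of 603, 735 and 339.8 CPM in HFCF and 223 to 331 in chow. In both lists HFCF replicate 3 was the lowest of its group, as in Plau, Plaur and Plat. The 4 platelet markers had 1 higher, Pf4 (1.67 ± 0.44, edgeR adjusted p = 0.0190, a call lost without chow replicate 2 or 3 or HFCF replicate 1 or 2, up to 0.0935), with sums of 5.59 to 6.50 CPM in HFCF and 4.12 to 5.87 in chow. Among the 9 endothelial markers only Tek passed (0.45 ± 0.11, edgeR adjusted p = 0.0133, or 0.0543 without chow replicate 2 and 0.0540 without chow replicate 1), and their sums overlapped, with 532 to 561 CPM in HFCF and 527 to 571 in chow. Of the other lists tested, 1 of 5 Kupffer cell markers (Cd5l), 1 of 5 cholangiocyte markers (Spp1), 2 of 2 neutrophil markers and 0 of 3 red cell markers rose, by edgeR. The Kupffer cell and cholangiocyte lists were not uniform, with 2 and 1 of their 5 markers below 0, down to -0.75 and -0.66. The neutrophil and red cell lists had 0 below 0. Only 2 of the 4 neutrophil markers listed and 4 of the 6 platelet markers were found among the deposited genes. No marker found was at 0 in any library, apart from 1 monocyte marker in chow at 3 months replicate 3. The part of these cell types in the changes of Plau, Plaur, Plat, F13a1 and Procr was not tested.

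Hepatocyte markers moved in part with the hepatocyte members. Of 7 tested, 4 fell at 3 months, Cps1, Pck1 and Apoa1 among them, and none rose, with a median of -0.57. The list was not uniform, since 2 of the 7 had a change above 0, of up to 0.10. Without chow replicate 2 or HFCF replicate 1 or 2 only Cps1 and Pck1 passed. Their summed level was 58891, 59280.5 and 73160.1 CPM in HFCF against 94581 to 95453 in chow. The 24 hepatocyte members summed to 20592, 18373 and 24192 CPM in HFCF and 24845 to 28815 in chow. Their median log2 level relative to the mean of the 6 chow libraries was -0.34, -0.48 and -0.12 in HFCF replicates 1, 2 and 3. For the 7 hepatocyte markers it was -0.86, -0.81 and -0.67 in the same libraries. Whether the hepatocyte members fell by more or less than these markers was not tested. With total counts in place of TMM, the median of all genes at 3 months moved to 0.13, the split of all calls from 1697 higher and 1105 lower to 2516 and 574, and 10 members passed, all but Hrg.

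**Figure D4:**
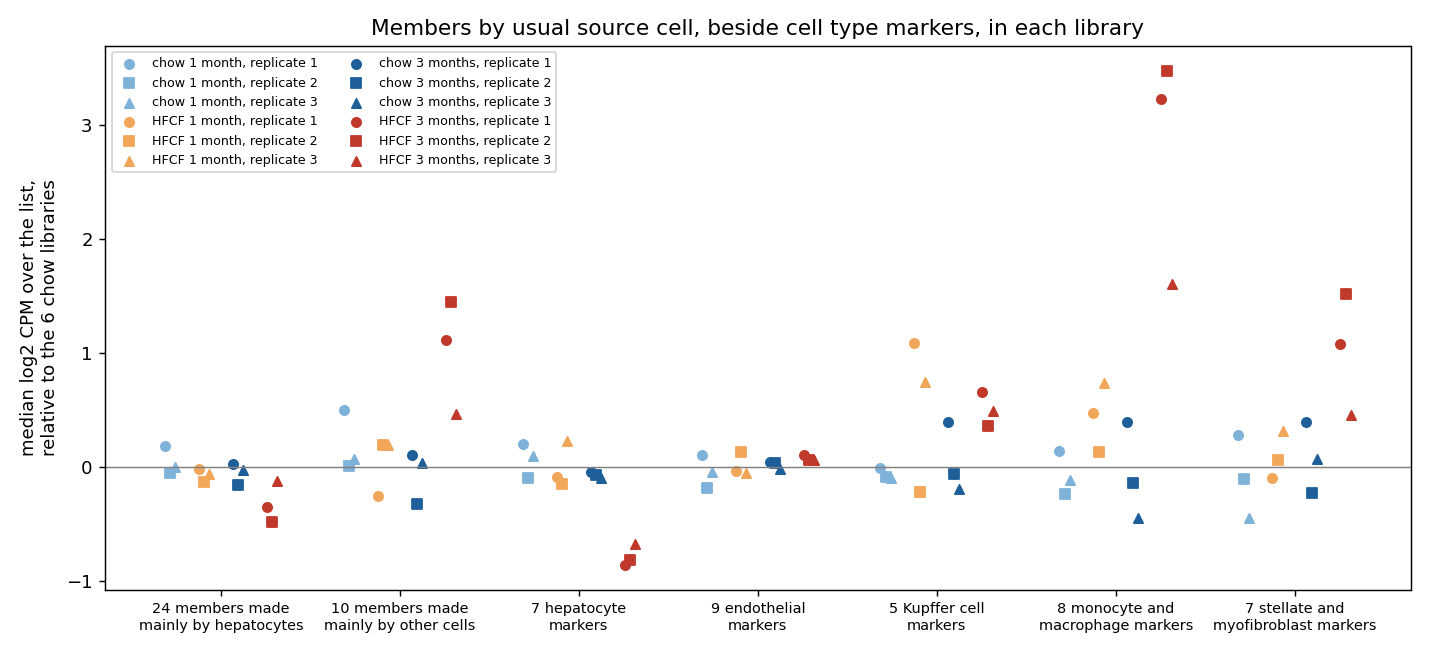
Median log2 CPM over each gene list relative to the mean of the 6 chow libraries, in each of the 12 libraries, with colour for the group and marker shape for the replicate. HFCF at 3 months replicates 1 and 2 (red circle and square) are the highest libraries for the 10 members made by other cells, at 1.11 and 1.45, and for the monocyte and stellate lists. Replicate 3 lies below them, and the endothelial list runs only from -0.18 to 0.14 over the 12 libraries.

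Other genes of the pathway, which were listed by function, moved in part at 3 months. Of the 6 inhibitors and receptors of the plasminogen activators, 3 rose, among them Anxa2 and S100a10. Anxa2 had 10.7, 7.58 and 9.07 CPM in chow and 98.7, 154 and 35.4 CPM in HFCF, and S100a10 had 70.3, 116 and 101 and 153, 227 and 116 CPM. Anxa2 and S100a10, which form a cell surface complex that binds plasminogen and its tissue-type activator, changed by 3.40 ± 0.52 and 0.79 ± 0.24 (edgeR adjusted p = 0.00320 and 0.0388). S100a10 lost the call without chow replicate 1 or 3 or HFCF replicate 1 or 2 (up to 0.150). As in the activators, HFCF replicate 2 was the highest and replicate 3 the lowest of its group in both genes.

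Of 3 protease receptors tested, F2rl1, the protease-activated receptor cut by trypsin-like proteases, rose (2.38 ± 0.55, edgeR adjusted p = 0.00940). Its call was lost without chow replicate 2 (0.0525) and without HFCF replicate 2 (0.0508). Of 13 other regulators 4 passed: Tgm2, a tissue transglutaminase (1.31 ± 0.14, edgeR adjusted p = 0.000199), Thbs1, thrombospondin (2.50 ± 0.50, edgeR adjusted p = 0.00732) and Fgl2, a membrane prothrombinase (1.46 ± 0.31, edgeR adjusted p = 0.00831), rose. Fgl1, a hepatocyte protein related to fibrinogen, fell (-1.80 ± 0.53, edgeR adjusted p = 0.0419), a call lost without any 1 of the 6 libraries (up to 0.153). Of 6 genes of the vitamin K cycle and of factor secretion, Vkorc1, which recycles vitamin K for the clotting factors, fell (-0.34 ± 0.09, edgeR adjusted p = 0.0154, a call lost without chow replicate 2 or HFCF replicate 1 or 2, up to 0.0701, and with scaling by total counts, 0.0952).

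Of 10 transcription factors and interleukin-6 signalling genes, listed as regulators of hepatocyte expression of these genes, 3 fell and none rose at 3 months. Il6ra, the interleukin-6 receptor of the acute phase response, had 51.4, 55.2 and 57.6 CPM in chow and 22.4, 23.6 and 29.5 CPM in HFCF (-1.12 ± 0.14, edgeR adjusted p = 0.000428). Hnf4a, a nuclear receptor of hepatocytes, had 675, 756 and 745 CPM in chow and 450.2, 449 and 583 CPM in HFCF (-0.55 ± 0.13, edgeR adjusted p = 0.00871, or 0.0529 without HFCF replicate 2). Stat3, which carries the interleukin-6 signal to the fibrinogen genes, changed by -0.42 ± 0.10 (edgeR adjusted p = 0.0122, with 0.0553 without HFCF replicate 2, 0.0529 without chow replicate 2 and 0.0596 with scaling by total counts). The HFCF and chow libraries did not overlap in any of the 3. The part of these 3 genes in the members' changes was not tested.

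After 1 month no member passed the threshold (0 of 34), where 2.04% of all genes did. Before adjustment edgeR gave 6 members a p under 0.05 (F13a1, Thbd, F11, Tfpi, Fga and F8), against 16.3% of all genes. The DESeq2 Wald test called 2, F11 and F8, and limma-voom called 0. The HFCF and chow libraries did not overlap in 8 members (23.5%), as in 20.6% of all genes. Tfpi and F8 were the higher ones, and F9, F11, Fga, Serpinc1, Plg and Hrg the lower ones. The median change was -0.13 over the 24 hepatocyte members and -0.12 over the 10 of other cells, beside -0.005 over all genes.

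F11, the zymogen of the contact path that activates factor IX, was closest to the threshold at 1 month. It had 65.8, 71.2 and 65.1 CPM in chow and 39.9, 52.1 and 37.7 CPM in HFCF (-0.64 ± 0.16, edgeR adjusted p = 0.0545). The 3 chow libraries at 1 month lay above the other 9 libraries of the series, since chow at 3 months had 37.1, 49.4 and 44.2 CPM and HFCF at 3 months 42.5, 28.8 and 31.0. Without HFCF replicate 2 the adjusted p of F11 was 0.0253, and without HFCF replicate 1 it was 0.209. F8 had 62.9, 76.7 and 83.6 CPM in chow and 117, 91.8 and 96.1 in HFCF (0.45 ± 0.13, edgeR adjusted p = 0.0928), and Tfpi had 7.54, 8.04 and 8.71 and 11.6, 10.3 and 9.82 (0.39 ± 0.13, edgeR adjusted p = 0.148). In both genes the change at 1 month had the sign and about the size seen at 3 months, 0.47 and 0.56. Fga was at -0.48 ± 0.19 (edgeR adjusted p = 0.222).

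F13a1, Thbd and Plat did not pass at 1 month, and their level was high in the chow library that stood apart, replicate 1. F13a1 had 2.57, 0.645 and 0.283 CPM in chow and 0.391, 0.267 and 0.409 in HFCF (-1.70 ± 0.77, edgeR adjusted p = 0.296, or 0.871 without chow replicate 1). Thbd had 16.7, 7.92 and 9.35 and 6.15, 5.68 and 8.73 CPM (-0.73 ± 0.29, edgeR adjusted p = 0.233, or 0.636 without it). Plat had 2.70, 0.998 and 1.06 and 0.391, 1.20 and 0.682 CPM (-1.09 ± 0.70, edgeR adjusted p = 0.486). In all 3 genes chow replicate 1 was above the other 5 libraries of that month.

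The test of whether the effect of HFCF differed between the months called 0 of 34 members in edgeR, where 0.0407% of all genes passed. Before adjustment 7 members had a p under 0.05, against 15.6% of all genes: F13a1, Plat, Plau, Plaur and Procr, whose change was higher at 3 months, and F7 and Serpinf2, whose change was lower. The differences on the log2 scale were 4.24 ± 1.07 for F13a1, 3.57 ± 0.95 for Plat, 2.02 ± 0.66 for Plaur, 1.99 ± 0.59 for Plau and 1.28 ± 0.56 for Procr. They were -0.61 ± 0.21 for F7 and -0.59 ± 0.20 for Serpinf2, and the edgeR adjusted p of these 7 ran from 0.120 to 0.288. The DESeq2 Wald test called 3, Plat (adjusted p = 0.00796), F13a1 (0.0107) and Plau (0.0402), and limma-voom called 0. F13a1 had counts high enough to be tested only through HFCF at 3 months, so its values in this comparison are no independent support. The edgeR count was 6 without HFCF at 3 months replicate 3 (Plat, F13a1, Plau, Plaur, F7 and Serpinf2) and 5 without both libraries that stood apart, the same members but Plaur. Without chow at 1 month replicate 1 alone, which stood apart, it was 0. The differences were then smaller for F13a1 (2.95), Plat (2.94), Plaur (1.49) and Procr (0.94). Those of Plau (2.03), F7 (-0.71) and Serpinf2 (-0.68) were not smaller. With all 12 libraries, edgeR and limma-voom thus showed no member to differ in its response between the months. DESeq2 showed Plat, Plau and, with the limit given above, F13a1.

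Over time on chow, from 1 to 3 months of feeding, 0 of 34 members passed in edgeR, where 0.00679% of all genes (1 gene) did. Before adjustment 3 members had a p under 0.05, against 8.08% of all genes: F13a1 (-1.99 ± 0.79), F11 (-0.63 ± 0.16) and F9 (-0.32 ± 0.11), with edgeR adjusted p of 0.554, 0.301 and 0.492. The value of F13a1 was -0.69 without chow at 1 month replicate 1, which stood apart, and -3.00 without chow at 3 months replicate 1. DESeq2 and limma-voom also called 0. F9 stood at 278, 285 and 293 CPM at 1 month and 206, 236 and 245 CPM at 3 months. The libraries of the 2 months did not overlap in F9, F11 and Pros1, all lower at 3 months, and 15.5% of all genes did not overlap.

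Over time on HFCF 8 of 34 members passed (23.5%), where 16.2% of all genes did. This comparison shares its HFCF libraries at 3 months with that of diet at 3 months. Procr (1.27 ± 0.34), Plat (2.49 ± 0.64), Plau (1.91 ± 0.40) and Plaur (1.79 ± 0.43) rose from 1 to 3 months, with edgeR adjusted p of 0.0240, 0.0249, 0.00897 and 0.0150, and 9.25% of all genes rose. F7 (-0.56 ± 0.15), F9 (-0.39 ± 0.11), Pros1 (-0.69 ± 0.20) and Serpinf2 (-0.60 ± 0.14) fell, with edgeR adjusted p of 0.0223, 0.0315, 0.0387 and 0.0145, and 6.95% of all genes fell. F9 fell on HFCF from 277, 265 and 263 CPM at 1 month to 187, 190.2 and 239 CPM at 3 months, beside the chow values above. The call of F9 was lost without any 1 of the 6 libraries except HFCF at 3 months replicate 3, and with only the groups compared. Pros1 had 193, 139 and 303 CPM at 1 month and 125, 136 and 134 at 3 months, and without HFCF at 1 month replicate 3, the highest library, its change was -0.34 (edgeR adjusted p = 0.123). Its call was also lost without any other 1 of the 6 libraries except HFCF at 1 month replicate 2, without both libraries that stood apart (0.0845), with only the groups compared (0.119) and with limma-voom (0.0521). F13a1 (2.26, edgeR adjusted p = 0.0523), Plg (-0.35, 0.0854), F10 (-0.36, 0.103), F12 (-0.26, 0.147) and F11 (-0.34, 0.154) did not pass. Without HFCF at 3 months replicate 1 or 2 the count was 1 (Plau). Without HFCF at 1 month replicate 2 it was 6, with F9 and F7 lost. It was 2 without HFCF at 1 month replicate 3 (Plau and Plaur), 3 without HFCF at 1 month replicate 1 (F7, Plau and Serpinf2), 12 without HFCF at 3 months replicate 3 and 13 without both libraries that stood apart, and these last counts each hold 7 of the 8, all but Pros1. The libraries of the 2 months did not overlap in 12 members on HFCF, as in 32.1% of all genes. All 24 hepatocyte members had a change below 0 (median -0.25) and all 10 of other cells a change above 0 (median 0.90), beside a median of 0.02 over all genes. F13a1, among the latter, had counts high enough to be tested only through HFCF at 3 months, so its sign is no independent support. In the same comparison 7 of 8 monocyte markers rose (median 2.28), 2 of 7 stellate and 2 of 5 cholangiocyte markers rose, 4 of 7 hepatocyte markers fell (median -0.80) and 2 of 3 red cell markers fell, by edgeR, and the part of these cell types in the members' changes was not tested. With total counts in place of TMM, the median of all genes moved to 0.22, F9 and Pros1 did not pass, and F13a1, Vwf and Tfpi did.

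The authors' deposited table gives its own adjusted p for the same comparisons, by a tool not stated. At 3 months 12 members passed in the authors' deposited table, the 11 above and Fga. At 1 month F11 and F8 passed in the authors' deposited table, and over time 10 passed on HFCF, the 8 above with F13a1 and Plg, and 0 on chow. With its ratios read as the first-named over the second-named group, the sign of the change in the authors' deposited table was that found here in all 34 members in each of the 4 comparisons.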

How the data were processed

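Per the labels' protocols, liver RNA was extracted with Trizol and a Direct-zol kit, and libraries were made with a TruSeq Stranded kit and Ribo-Zero Gold. The authors deposited 1 table of 16035 genes with raw read counts, FPKM, log2 ratios and, per the file headers, adjusted p-values, which the authors wrote as a score of -10 times the log10. The build is mm10 per the submitters' processing notes, while for the aligner, the counter and its use of strand the sources used here give nothing. The deposited FPKM divide by gene length and 1 total per library, without TMM.

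From the counts, 1 empty line was left out and filterByExpr removed 1310 genes. The other 14725 were fitted over all 12 libraries as 4 group means with edgeR 4.0.16 in R 4.3.3 (TMM, robust glmQLFit, glmQLFTest), with Benjamini-Hochberg adjustment over all genes and a threshold of 0.05. The SE of a change is its size divided by the square root of F. The fit was tested on simulated data. The precision is set by 13733485 to 20277572 counts per library, a common biological coefficient of variation of 0.153 and 3 libraries per group, and intervals of counting error were not used. No 2 libraries of a group agreed within counting noise.

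The members, their lists and the 2 libraries left out together were chosen with earlier results of these data known. Values in every library are given for each member past the threshold in a comparison of diets, the change and adjusted p for those past it over time only or with p under 0.05, and ranges for the others (a few list genes are not reported here), with the best known members of each role named. Alternatives were size factors, total counts, both other filters, DESeq2 1.42.0, limma-voom (limma 3.58.1), a replicate block, robust estimation off, only the groups compared, a fold change of at least 2 and each library left out. Coordinates are those of the deposited table with 1 added to the start, overlapping exons are from GENCODE M21, which holds the IDs of all 34 members, and promoters are from RefSeq (GRCm38.p6).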

Additional observations from a re-analysis of the deposited data

How the results depend on the processing

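Of the members called, the count at 1 month was 0 with edgeR, 2 with DESeq2 and 0 to 1 with each library left out. At 3 months it was 11, 5 with a fold change of at least 2, 17 without both libraries that stood apart and 6 to 14 with 1 library left out. For the difference of the diet effects it was 0, 3 with DESeq2, 5 without both libraries and 0 to 6 with 1 left out. Over time on chow it was 0 throughout, and over time on HFCF it was 8, 5 with only the groups compared, 4 with a fold change of at least 2, 13 without both libraries and 1 to 12 with 1 left out. Of all genes, 301 were called at 1 month, 630 with DESeq2, 147 with only the groups compared, 98 with a fold change of at least 2, 149 without both libraries and 65 to 289 with 1 left out. At 3 months 2802 were called, 1016 with a fold change of at least 2 and 1255 to 3631 with 1 library left out. The difference called 6 genes, 0 with total counts, 367 with DESeq2, 3 with limma-voom, 48 with the replicate block, 635 without both libraries and 0 to 878 with 1 left out. Chow over time called 1 gene, 2 each with size factors, total counts, no filter and without both libraries, 64 with DESeq2, 17 with only the groups compared and 1 to 6 with 1 left out. HFCF over time called 2385, 3907 with total counts, 1298 with only the groups compared, 781 with a fold change of at least 2, 3808 without both libraries and 732 to 3562 with 1 left out. Total counts moved the split of calls over time on HFCF from 1362 higher and 1023 lower to 3424 and 483, and the median of all genes in the difference to 0.11. Thbd reversed to -0.13 (adjusted p = 0.809) at 3 months without chow replicate 1, and ran from -0.13 to 0.34 with 1 library left out. No pairing of the libraries by replicate number was seen, though these correlations cannot exclude one. Deviations of 18 same-numbered pairs correlated at -0.17 to 0.19 (median -0.010), beside a median of -0.003 in 36 other pairs. A correlation over 0.1 was found in 5 of the 18 and in 6 of the 36. With the replicate block the members called were 0, 11, 0, 0 and 9 in the order above, with F13a1 gained over time on HFCF. Over the single genes and all alternatives, 1297 values kept the direction and the side of the threshold, 41 came to pass it and 144 ceased to. The cause of these changes was not tested, apart from the smaller set of libraries where 1 is left out. Counts of 1 to 56 reads limit F13a1, and Procr and F13a1 were not tested under the filter of a mean of at least 1 CPM.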
